A study of Mus musculus with 24 samples.

Results

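The transcripts of 49 genes of the mitotic spindle and of chromosome segregation were followed in BAP1-AID and UTX-AID mouse embryonic stem cells (ESCs), out of 26264 genes in the table. The list was chosen on measured values of these same libraries, among which *Cenpf* was higher with IAA in BAP1-AID cells at 6 h of RA. The values of that contrast are therefore given here as a description, with no test. By role, the list holds 10 cyclins and mitotic kinases, 8 genes of checkpoint and anaphase control, 7 of the centromere and kinetochore, 2 of the chromosomal passenger complex, 8 mitotic kinesins, 5 of spindle assembly and poles, 3 of the midzone and cytokinesis and 6 of chromosome structure.

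As a cell enters mitosis, CDK1 bound to a B-type cyclin starts chromosome condensation and spindle assembly, and kinetochores built on centromeric chromatin capture spindle microtubules. The spindle checkpoint holds the anaphase-promoting complex inactive until every chromosome is attached, after which separase cuts cohesin and the chromatids part. Most of these genes are transcribed late in the cell cycle, from promoters that often carry a CHR element and CCAAT boxes, which are bound by the DREAM, MuvB-FOXM1 and NF-Y complexes.

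Both clones carry HA-AID tags. In one, BAP1, a deubiquitinase of histone H2A, is tagged C-terminally, and in the other UTX, a histone demethylase encoded by *Kdm6a*, is tagged N-terminally. Both also overexpress TIR1, the adaptor through which the auxin IAA sends a tagged protein to the proteasome. The cells were kept without (−IAA) or with IAA (+IAA) and treated with retinoic acid (RA), which starts differentiation, for 0, 3 or 6 h. By the paper, IAA was added 2 h before RA, and RA was given without leukemia inhibitory factor (LIF), which the ESC medium contains. Time in IAA may therefore have lengthened with time in RA. Changes named after RA here may include the loss of LIF, and the part of each was not tested. Poly(A) RNA was sequenced from 2 replicates of each of the 12 groups, 24 libraries in all. Each of BAP1-AID and UTX-AID is represented by a single line, the untagged parent was not analysed here, and no source used here says that replicates came from separate cultures, so that p-values measure the spread between these libraries, which may be technical.

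Library totals were 42018795 to 54034789 estimated counts, and all 49 genes passed the filter on low counts in both clones. The lowest count of any of them in any library was 1009, for *Kif18a*. All 10 ESC markers were above 1 CPM (counts scaled to library size) on average in every arm of both clones. Of 10 fibroblast markers, 2 to 3 exceeded that level. *Fn1* made up nearly all of their sum, which was 1200 to 1510 CPM in −IAA and 1270 to 1360 CPM in +IAA libraries of BAP1-AID and 591 to 696 CPM in UTX-AID, and without *Fn1* it was 2.67 to 14.5 CPM, with *Postn* at 0 throughout. With IAA in BAP1-AID at 0 h, the ESC markers *Nanog* (log2 fold change −0.58) and *Esrrb* (−0.27) were lower and the fibroblast marker *Dcn* (0.46) was higher, and the part of other cells or states in the IAA results was not tested. *Bap1* was at 93.3 to 105 CPM without and 93.7 to 105 CPM with IAA in its tagged clone, and *Kdm6a* was at 93.5 to 114 and then 107 to 125 CPM in the other. AID acts on the protein, so these levels do not show whether depletion took place.

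In BAP1-AID cells at 0 h of RA, IAA was accompanied by higher levels of most of the 49 genes. With edgeR's quasi-likelihood test and adjustment over all 15695 genes tested, 30 were higher (against 11.8% of all genes) and 1 was lower (against 6.66%) at an adjusted p below 0.05, here called passing. The median log2 fold change was 0.49, against −0.042 over all genes tested, and the range ran from −0.26 for *Nek2*, a centrosomal kinase, to 0.98 for *Aspm*, a spindle pole protein. Every role but the chromosomal passenger complex held genes that rose: 6 of 7 centromere and kinetochore genes, 5 of 6 chromosome structure genes, 5 of 8 kinesins, 4 of 5 spindle assembly genes, all 3 midzone genes, 4 of 8 checkpoint genes and 3 of 10 cyclins and kinases. In bulk RNA, a larger share of cells in mitosis and more RNA per mitotic cell cannot be told apart.

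*Top2a*, which encodes topoisomerase II alpha, the enzyme that untangles sister chromatids, stood at 352 and 365 CPM without and at 647 and 649 CPM with IAA, a log2 fold change of 0.83 (standard error 0.0643, adjusted p = 3.55e-05 by edgeR). *Kif11*, the kinesin that pushes spindle poles apart, went from 136 and 144 to 241 and 247 CPM (0.78, standard error 0.0676, adjusted p = 3.88e-05 by edgeR). In both genes the +IAA libraries lay far above the −IAA libraries, and replicates lay close together. *Cenpf*, a protein of the outer kinetochore (chr1:189372752-189420315 in GRCm39, minus strand, 18 exons), was at 34.6 and 38.7 CPM without and at 66.1 and 64.4 CPM with IAA, which gave 0.81 (standard error 0.0748, adjusted p = 4.53e-05 by edgeR). *Nek2* went the other way, from 113 and 116 to 96.8 and 96.9 CPM, a fall that edgeR gave an adjusted p of 0.0108 and that no longer passed when either +IAA library of 0 h or replicate 2 of the −IAA libraries was left out (log2 fold change −0.24 to −0.23). Of the cyclins, kinases and checkpoint genes, *Ccnb1*, *Plk4*, *Ttk*, *Bub1*, *Mad2l1*, *Sgo1* and *Sgo2a* passed as higher, whereas others did not pass. *Plk1*, the Polo kinase, was at 252 and 249 CPM without and 238 and 240 CPM with IAA, and *Cdc20*, the activator of the anaphase-promoting complex, at 440 and 435 and then 421 and 418 CPM (log2 fold changes −0.088 and −0.080).

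**Figure D1:**
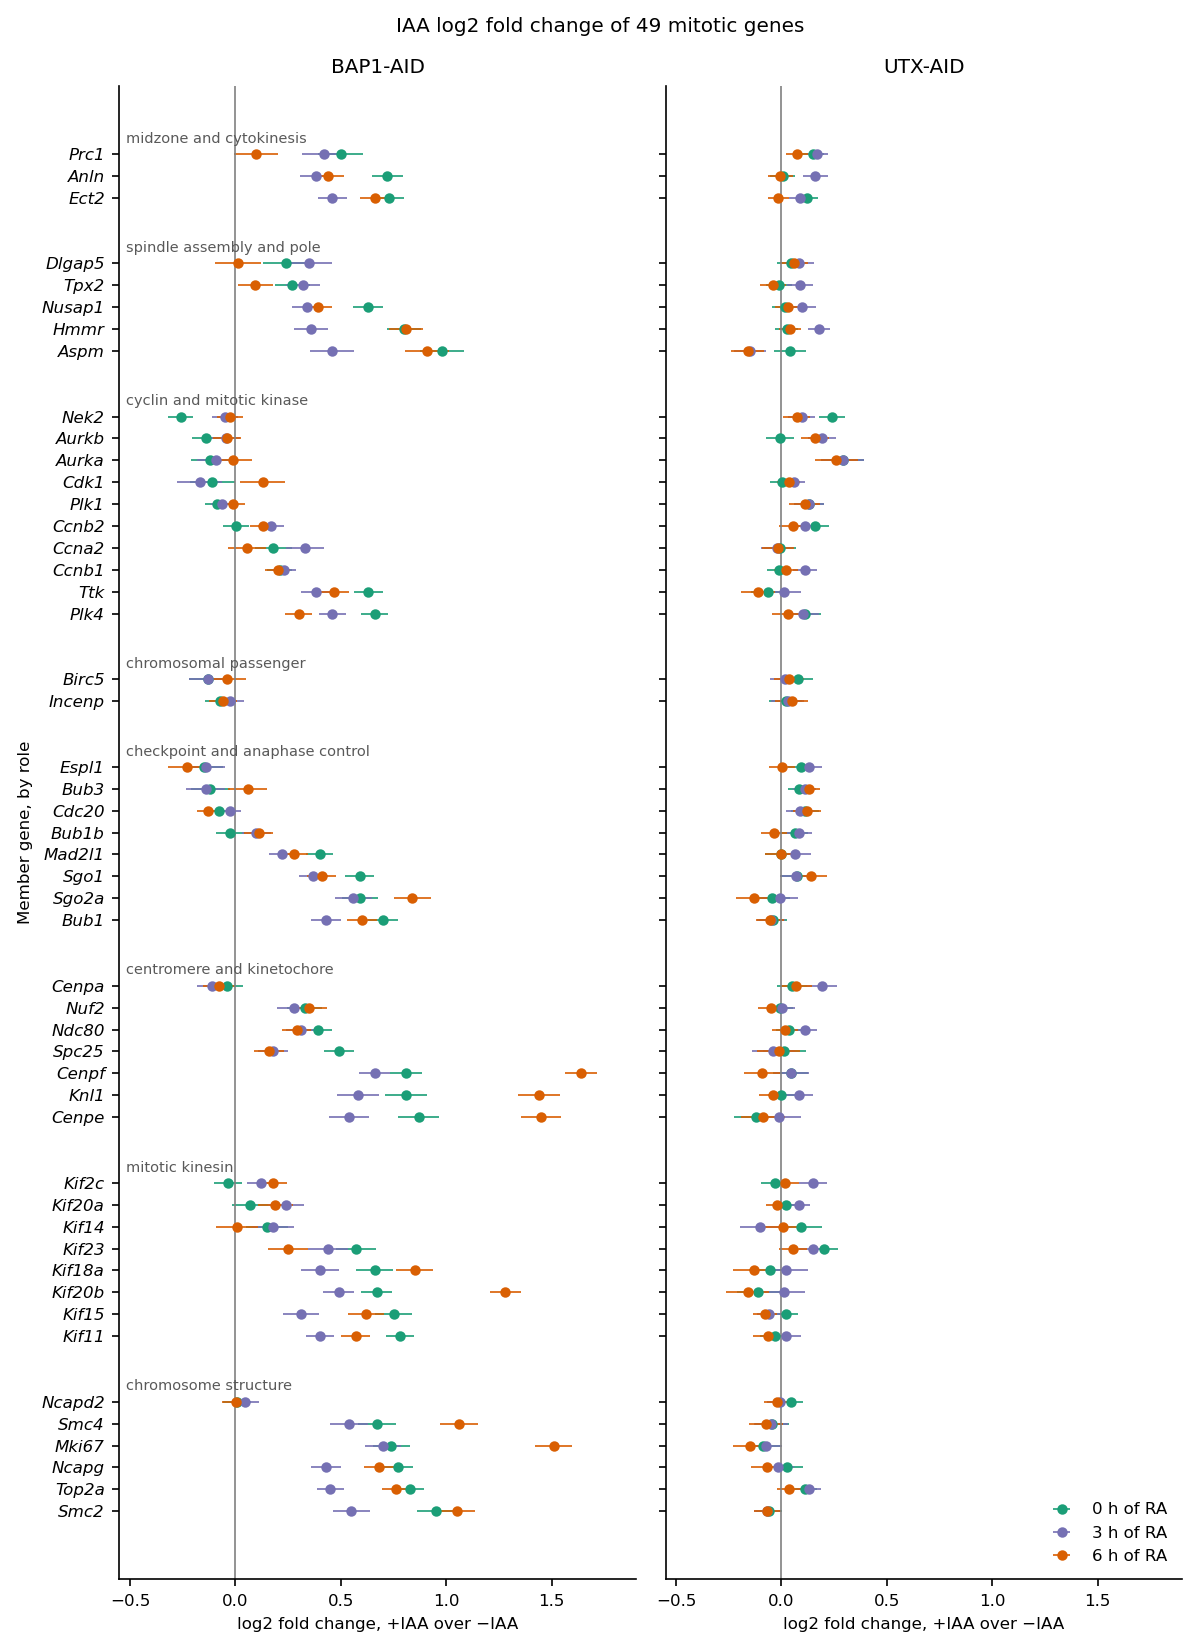
The log2 fold change of +IAA over −IAA libraries (x axis) for each of 49 genes (rows, grouped by role) in BAP1-AID (left) and UTX-AID cells (right) at 0, 3 and 6 h of RA. Points are edgeR estimates and bars their standard errors. In BAP1-AID most points lie to the right of 0, up to 1.64 for *Cenpf* at 6 h, and in UTX-AID they lie between −0.16 and 0.29.

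At 3 h of RA, 30 of the 49 were again higher with IAA (against 8.68% of all genes) and 0 were lower (against 4.6%), with a median log2 fold change of 0.33 against −0.014 over all genes. The genes that rose at 0 and 3 h were nearly the same, with 29 shared, 96.7% of either list, the exceptions being *Spc25* at 0 h and *Ccna2*, cyclin A2, at 3 h. *Cenpf* was at 42.7 and 46.4 CPM without and 69.9 and 70.9 CPM with IAA (log2 fold change 0.66, standard error 0.0744, adjusted p = 0.00211 by edgeR). *Mki67*, which codes for the proliferation antigen Ki-67 that coats mitotic chromosomes, rose from 87.9 and 101 to 152 and 155 CPM, a log2 fold change of 0.70 and the highest of the 49. *Plk4*, the kinase that starts centriole duplication, rose from 49.5 and 52.6 to 69.0 and 71.8 CPM (0.46). In all 3 genes the arms did not overlap. The −IAA replicates differed from each other more than the +IAA replicates did in several genes, as in *Cdk1*, at 356 and 281 CPM without and 277 and 292 CPM with IAA. The number that passed was 14 without replicate 1 and 16 without replicate 2 of the +IAA libraries of 3 h, and 39 at most.

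At 6 h of RA, the contrast from which the list was chosen, *Cenpf* was at 42 and 42.6 CPM without and at 136 and 132 CPM with IAA, a log2 fold change of 1.64. Values above 1 were found for 7 of the 49 genes (against 4.7% of all genes tested): besides *Cenpf*, these were *Mki67* (1.51), *Cenpe* (1.45), *Knl1* (1.44), *Kif20b* (1.28), *Smc4* (1.06) and *Smc2* (1.05). *Cenpe* is a kinetochore motor, *Knl1* the kinetochore scaffold that recruits BUB1, and *Smc2* and *Smc4* form the ATPase pair of condensin. *Mki67* went from 92.9 and 93.9 to 273 and 269 CPM and *Cenpe* from 39.9 and 38.6 to 107 and 112 CPM. The median of the 49 was 0.28, 40 were above 0, and the lowest was *Espl1*, separase, at −0.23.

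**Figure D2:**
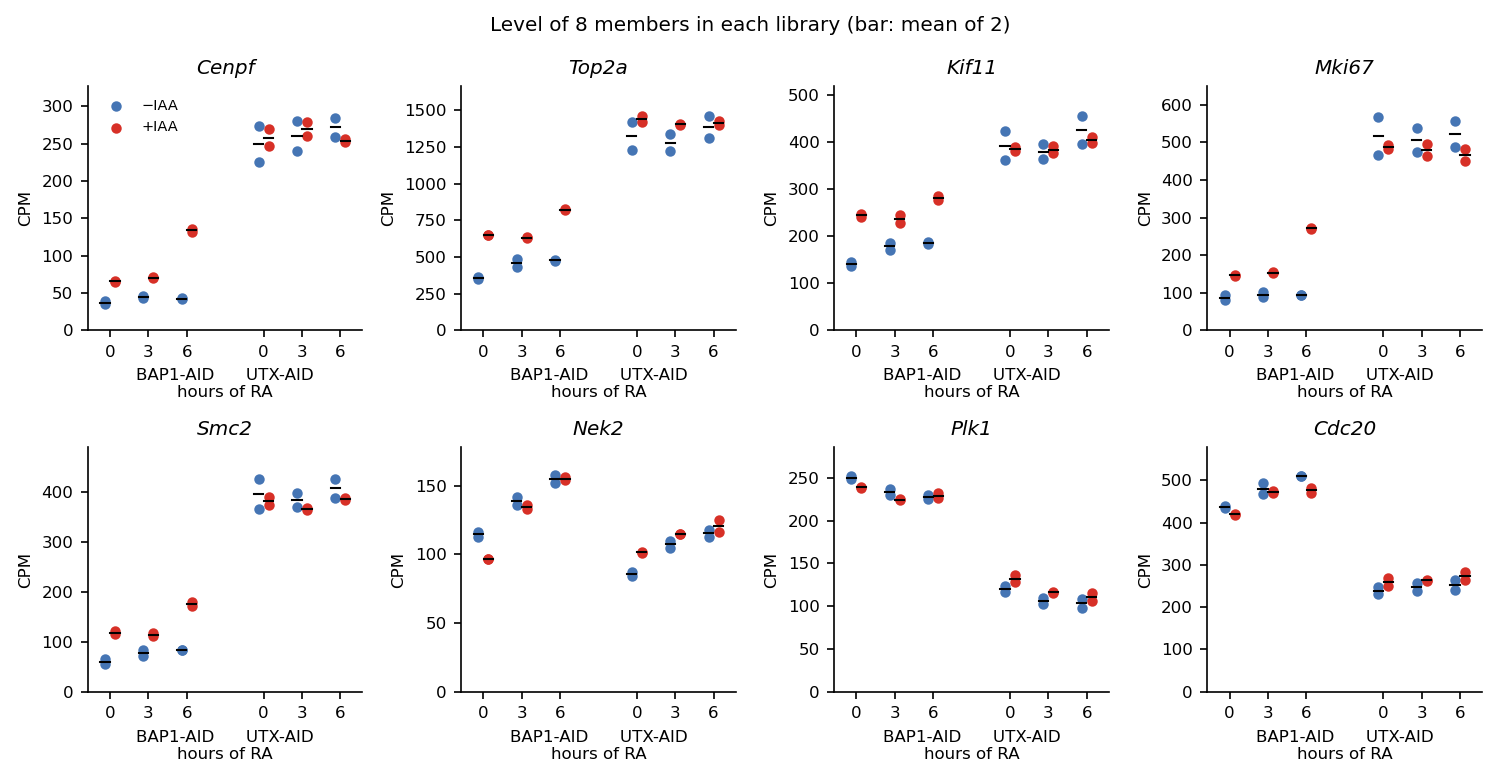
CPM (y axis, from 0) of 8 genes in each of the 24 libraries, by clone and hours of RA, without (blue) and with IAA (red). Black bars are means of 2 replicates. *Cenpf*, *Top2a*, *Kif11*, *Mki67* and *Smc2* are higher with IAA at each time in BAP1-AID and higher still in UTX-AID, whereas *Plk1* and *Cdc20* are lower in UTX-AID.

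Most of the genes that rose had a low GC content. By the Ensembl canonical transcript of each gene in GENCODE vM39, the 49 had a median GC content of 44.4%, from 37.7% for *Kif18a* to 55.9% for *Plk1*, against 50.5% over 16208 genes tested, and 42 of them lay below that value. Their median transcript length was 4026 bases, against 3183.5, and *Cenpf* is the longest at 11210 bases. Coding stretches from both ends of this range are printed to show what the difference looks like. Each is the middle 90 bases of the longest coding exon of its gene in mm39, with every G and C in capitals, for the 3 genes of lowest GC content, for *Cenpf* and for the 3 of highest.
*Kif18a*: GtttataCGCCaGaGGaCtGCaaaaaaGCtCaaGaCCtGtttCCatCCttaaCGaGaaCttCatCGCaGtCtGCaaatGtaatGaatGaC (chr2:109163762-109163851, plus strand, exon 14 of 17)
*Knl1*: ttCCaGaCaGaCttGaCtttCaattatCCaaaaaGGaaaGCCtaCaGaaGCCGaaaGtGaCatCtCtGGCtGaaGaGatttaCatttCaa (chr2:118900807-118900896, plus strand, exon 8 of 24)
*Ncapg*: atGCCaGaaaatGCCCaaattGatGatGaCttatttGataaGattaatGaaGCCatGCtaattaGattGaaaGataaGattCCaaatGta (chr5:45829684-45829773, plus strand, exon 3 of 21)
*Cenpf*: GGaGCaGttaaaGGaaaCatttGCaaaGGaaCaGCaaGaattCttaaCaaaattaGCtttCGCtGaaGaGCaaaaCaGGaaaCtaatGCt (chr1:189390511-189390600, minus strand, exon 12 of 18)
*Espl1*: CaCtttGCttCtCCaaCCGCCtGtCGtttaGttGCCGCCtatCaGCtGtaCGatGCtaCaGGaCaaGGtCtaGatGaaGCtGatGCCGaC (chr15:102207102-102207191, plus strand, exon 3 of 31)
*Cdc20*: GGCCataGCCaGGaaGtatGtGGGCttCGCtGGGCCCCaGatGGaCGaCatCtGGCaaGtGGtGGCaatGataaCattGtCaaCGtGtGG (chr4:118292739-118292828, minus strand, exon 7 of 10)
*Plk1*: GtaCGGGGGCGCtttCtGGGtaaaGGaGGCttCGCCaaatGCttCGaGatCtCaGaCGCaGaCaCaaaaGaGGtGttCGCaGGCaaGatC (chr7:121758925-121759014, plus strand, exon 1 of 10)
The stretch of *Ncapg* holds 30% G and C, that of *Cenpf* 36.7% and that of *Cdc20* 55.6%. A single stretch can depart from its transcript, and the stretch of *Kif18a* holds 42.2%.

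Over the 49 genes, the log2 fold change with IAA in BAP1-AID at 0 h fell with GC content, with a Spearman correlation of −0.786, as a description over genes of the same 4 libraries. Over 15168 genes tested it was −0.422. At 3 h these values were −0.729 and −0.386. In UTX-AID the sign was the opposite over the 49 genes, at 0.462 at 0 h, and −0.0132 over 15687 genes. With transcript length, the correlation in BAP1-AID was 0.491 over the 49 genes and 0.242 over all at 0 h. At 3 h it was 0.467 and 0.253. The parts of GC content and length were not tested apart. Of the 24 genes with the lowest GC content (37.7 to 44.2%), 24 rose at 0 h, with a median of 0.69, and 23 at 3 h, and of the other 25 (44.4 to 55.9%), 6 rose at 0 h and 7 at 3 h. Among all other genes, those of the lower band also rose, with a median of 0.41 and 43.6% of 2378 passing at 0 h, and a median of 0.27 and 28.6% passing at 3 h. Of 9293 other genes of the upper band, 6.57% were higher at 0 h (median −0.066) and 5.76% at 3 h (median −0.023).

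A fit with offsets for GC content and transcript length, estimated in each library, lowered the medians and the count at 3 h by over 1.5 times. At 0 h it left 21 of the 49 higher (against 5.52% of all genes in that fit) and 0 lower (against 4.7%), of which 20 were among the 31 that had passed, with a median of 0.19 and corrected log2 fold changes of 0.59 for *Aspm*, 0.52 for *Mki67*, 0.49 for *Top2a* and 0.35 for *Cenpf*. Among those that no longer passed at 0 h were *Kif18a*, *Kif20b*, *Knl1*, *Smc4*, *Sgo2a* and *Nek2*. At 3 h it left 8 higher (against 2.93%) and 0 lower (against 2.52%), with a median of 0.13, and *Cenpf* (0.35) and *Mki67* (0.50) were among the 5 of them that had passed before. At 6 h the corrected value was 1.29 for *Cenpf*, 1.34 for *Mki67* and 1.18 for *Cenpe*, the 3 genes that remained above 1. *Cdc20* turned from −0.080 to 0.14 at 0 h and from −0.028 to 0.17 at 3 h, where it then passed. Whether base composition acts on the measurement or marks a class of transcripts was not tested.

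**Figure D3:**
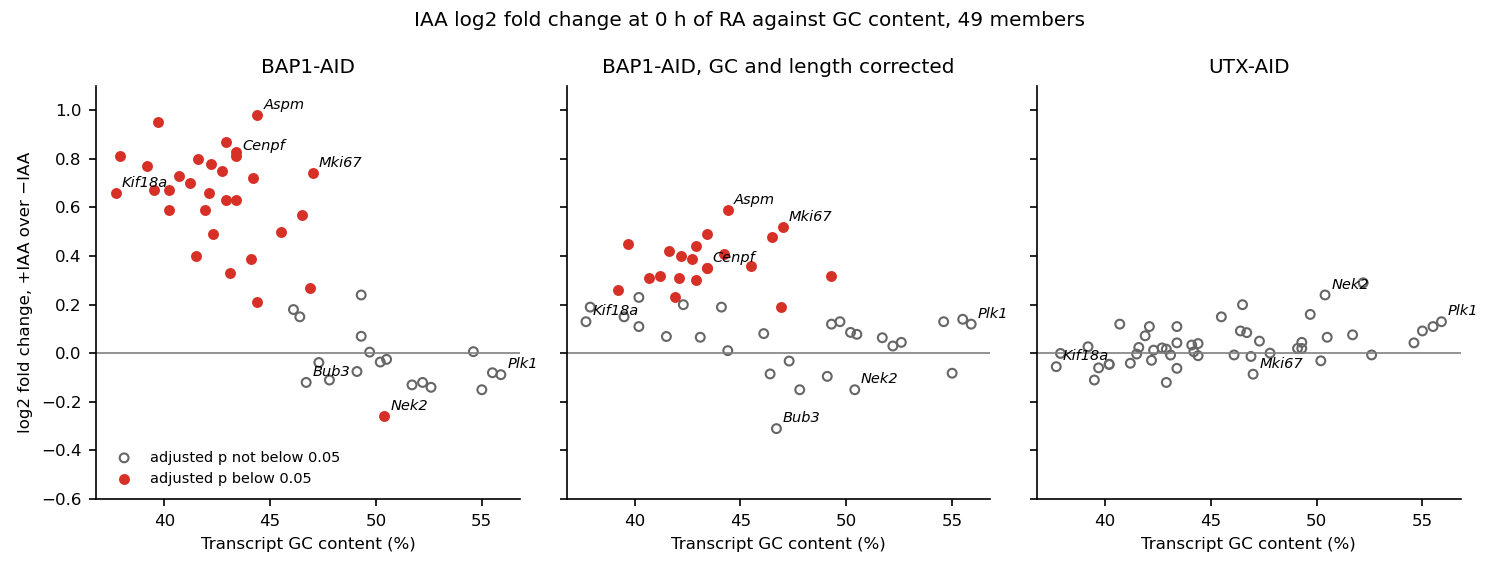
The log2 fold change with IAA at 0 h of RA (y axis) against the GC content of the transcript in percent (x axis) for 49 genes in BAP1-AID (left), in the same clone with the correction for GC content and length (middle) and in UTX-AID (right). Filled points have an adjusted p below 0.05: 31 on the left, 21 in the middle and 0 on the right.

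In UTX-AID cells, 0 of the 49 genes passed in either direction at 0, 3 or 6 h of RA by edgeR, where IAA had few calls among all 16268 genes: 0.0184% were higher and 0.0246% lower at 0 h, 0.0799% and 0.184% at 3 h, and 0.0184% and 0.0123% at 6 h. At an unadjusted p below 0.05, 6, 10 and 3 of the 49 were higher and 0 were lower, and DESeq2 called 0, 1 and 0, the 1 being *Hmmr*, a spindle pole protein also known as RHAMM. The medians of the log2 fold change were 0.022, 0.082 and −0.0010. *Cenpf* was at 225 and 274 CPM without and at 247 and 269 CPM with IAA at 0 h, at 240 and 281 and then 279 and 260 CPM at 3 h, and at 259 and 285 and then 256 and 252 CPM at 6 h, so that the arms overlapped at 0 and 3 h and lay close to each other at 6 h. The highest log2 fold change at each time was that of *Aurka*, the Aurora kinase of spindle poles (0.29, 0.29 and 0.26).

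For many of the genes the 2 clones differed in their response to IAA. In a fit of all 24 libraries, the log2 fold change with IAA in UTX-AID minus that in BAP1-AID at 0 h passed for 27 genes as lower (against 8.85% of 16816 genes) and for 1, *Nek2*, as higher (against 2.99%), with a median of −0.38. The difference was −1.03 for *Smc2* (standard error 0.116, adjusted p = 1.38e-05 by edgeR), at 56.2 and 64.5 CPM without and 121 and 116 CPM with IAA in BAP1-AID against 366 and 425 and then 373 and 389 CPM in UTX-AID. For *Hmmr* it was −0.79, with 71.3 and 68.2 CPM without and 125 and 122 CPM with IAA in BAP1-AID against 415 and 465 and then 449 and 448 CPM in UTX-AID. *Kif11* differed by −0.83, with UTX-AID at 361 and 423 CPM without and 389 and 381 CPM with IAA. In *Nek2*, where the difference was 0.48, UTX-AID stood at 87.3 and 84.6 CPM without and 102 and 101 CPM with IAA. At 3 h, 15 genes passed as lower (against 4.85%) and 0 as higher (against 2.5%; unadjusted p below 0.05 for 5, and 0 higher by DESeq2), among them *Mki67* (−0.78), *Smc2* (−0.63) and *Cenpf* (−0.62, standard error 0.128, adjusted p = 0.00693 by edgeR). The 3 h count was 7 without replicate 1 of the +IAA libraries of BAP1-AID, 28 without replicate 2 of its −IAA libraries, and 8 and 9 without either +IAA library of UTX-AID. With the correction for GC content and length, 1 gene passed as higher (*Nek2*, against 2.07%) and 10 as lower at 0 h (*Smc2* among them, against 2.84%), and 1 passed as lower at 3 h (*Mki67*, −0.57, against 1.65%) and 0 as higher (against 1.4%). The difference at 6 h was not tested, since the list was chosen on it in part.

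In BAP1-AID, part of the list rose after the change to RA without LIF. In −IAA cells, 11 genes were higher after 3 h (against 5.51%) and 0 lower (against 1.85%), with a median of 0.13. The 6 h libraries of both arms are those of the contrast that chose the list, so their values are a description and passing genes are not counted. After 6 h without IAA the median was 0.24, against 0.016 over all genes tested. *Spc25*, a subunit of the NDC80 complex, went from 46.0 and 52.1 CPM at 0 h to 68.0 and 66.1 CPM at 3 h and 82.8 and 84.9 CPM at 6 h, a log2 fold change of 0.47 at 3 h (standard error 0.0721, adjusted p = 0.00145 by edgeR) and 0.80 at 6 h. *Ect2*, the exchange factor that directs cytokinesis, went from 91.2 and 100 to 128 and 137 and then 145 and 143 CPM (0.49 at 3 h and 0.62 at 6 h). *Ttk*, the checkpoint kinase MPS1, went from 45.3 and 45.2 to 59.9 and 60.7 and then 67.8 and 66.9 CPM (0.43 at 3 h and 0.60 at 6 h). In these 3 genes each later time lay above the 0 h libraries. *Cenpf* without IAA changed by 0.30 after 3 h (adjusted p = 0.0318 by edgeR) and by 0.24 after 6 h. With the correction for GC content and length, 9 passed after 3 h (against 4.92% higher over all genes in that fit). The count at 3 h also changed with the library left out.

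With IAA, 2 of the 49 were higher than at 0 h after 3 h of RA in BAP1-AID (against 4.61%) and 0 were lower (against 1.91%): *Nek2*, at 96.8 and 96.9 and then 136 and 133 CPM, and *Cdc20*, at 421 and 418 and then 471 and 475 CPM. The call of *Cdc20* (0.20, adjusted p = 0.0422 by edgeR) was lost in 10 of 12 fits that left out 1 library, in each of which its log2 fold change was 0.17 to 0.20, and the other fits, without replicate 1 or 2 of the −IAA libraries of 3 h, called 4 and 6 genes. After 6 h, again as a description, 23 were higher (against 8.93%) and 0 lower (against 6.44%), with a median of 0.19. *Cenpf* went from 66.1 and 64.4 to 136 and 132 CPM (1.06). *Kif20b*, a kinesin of the late midzone, went from 99.4 and 92.3 to 177 and 161 CPM (0.84), and *Nek2* reached 156 and 154 CPM (0.70).

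In UTX-AID few of the genes passed after the change to RA without LIF. Without IAA, 1 gene was higher (against 3.56%) and 1 lower (against 1.28%) after 3 h, and 4 were higher (against 4.28%) and 1 lower (against 2.62%) after 6 h. *Nek2* rose at both times, from 87.3 and 84.6 to 105 and 110 and then 118 and 113 CPM (0.44 at 6 h, standard error 0.0631, adjusted p = 0.000276 by edgeR). *Aurkb*, the kinase of the chromosomal passenger complex, fell from 69.6 and 78.0 to 61.7 and 60.7 and then 61.5 and 60.3 CPM (−0.26 at 6 h, adjusted p = 0.0247 by edgeR). The other 3 that rose after 6 h were *Ect2* (0.29), *Ttk* (0.33) and *Dlgap5*, a microtubule-stabilizing protein of the spindle, at 154 and 172 and then 188 and 210 CPM (0.30). With IAA, 0 passed after 3 h (against 2.77% higher and 0.799% lower by edgeR; 3 and 2 at an unadjusted p below 0.05, and 1, *Dlgap5*, by DESeq2). After 6 h, 3 were higher (against 4.05%) and 0 lower (against 2.4%): *Dlgap5*, at 169 and 168 and then 206 and 205 CPM (0.32), *Nek2*, at 102 and 101 and then 125 and 116 CPM (0.27), and *Ttk*, at 150 and 150 and then 181 and 176 CPM (0.28). These shares are near those of all genes, except that the 4 of 49 higher after 6 h without IAA are a larger share than 4.28%. After 6 h with IAA, DESeq2 and the replicate block each called 6 of the 49 higher (against 4.62% and 5.08%) and 2 lower (against 3.16% and 3.65%). Leaving out 1 library gave 0 to 4 genes after 3 h and 2 to 5 after 6 h without IAA, and 0 to 1 and 0 to 4 with it. Without IAA the count was 0 at 3 h without replicate 2 of 0 h and 4 without replicate 1, and at 6 h it was 3 without replicate 1 of 0 h and 2 without replicate 2 of 6 h. With IAA at 6 h it was 0 without either +IAA library of 0 h or replicate 1 of 6 h, and 1 without replicate 2 of 6 h.

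**Figure D4:**
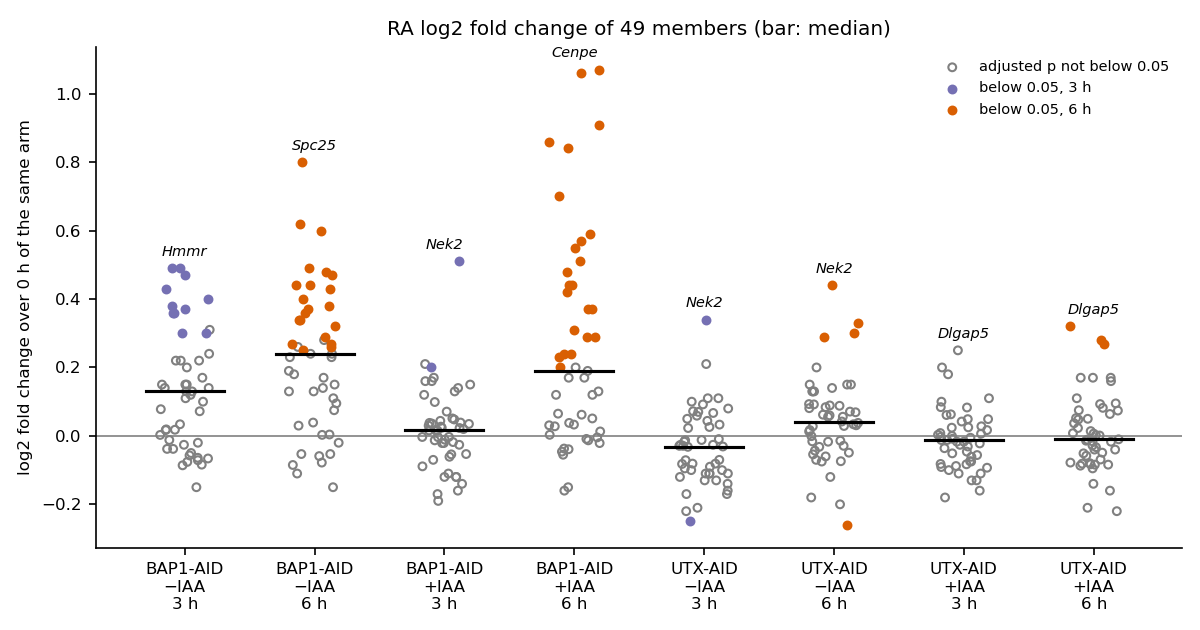
The log2 fold change after 3 or 6 h of RA over 0 h of the same arm (y axis) for 49 genes in each clone and arm (x axis), each point a gene and each bar the median. Filled points have an adjusted p below 0.05, and the gene with the highest value is named. The 6 h points of BAP1-AID come from libraries used to choose the list, so their filling is a description and no test. At 6 h the medians without and with IAA are 0.24 and 0.19 in BAP1-AID cells, and they are 0.042 and −0.010 in UTX-AID cells.

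The levels of most of the genes differed between the clones. At 0 h without IAA, 32 of the 49 were higher in UTX-AID than in BAP1-AID (against 25.4% of 16816 genes) and 12 were lower (against 27.2%), with a median log2 difference of 1.08, against 0.014 over all genes. Added up, the 49 genes had 11690 and 12900 CPM in UTX-AID and 7226 and 7344 CPM in BAP1-AID without IAA at 0 h, and 8724 and 8744 CPM in BAP1-AID with it. *Knl1* was at 24.3 and 28.3 CPM in BAP1-AID and at 206 and 234 CPM in UTX-AID, a log2 difference of 3.07 (standard error 0.0926, adjusted p = 4.25e-17 by edgeR). *Hmmr* and *Smc2*, whose values are given above, differed by 2.66 and 2.71. Lower in UTX-AID were *Incenp*, the scaffold of the chromosomal passenger complex (412 and 451 against 160 and 181 CPM, −1.34), *Plk1* (252 and 249 against 117 and 124 CPM, −1.06) and *Cdc20* (440 and 435 against 230 and 247 CPM, −0.87). The groups did not overlap in any of these 6 genes. Per kilobase of transcript, the lowest level of the 49 in BAP1-AID was that of *Cenpf* (3.27 CPM per kb, from a mean of 36.6 ± 2.87 CPM, SD, n = 2) and the highest that of *Cdc20* (236 CPM per kb). In UTX-AID the lowest was *Kif14* (4.60 CPM per kb) and the highest *Ccnb1*, cyclin B1 (334 CPM per kb).

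The order of the genes followed GC content here too. All 24 genes of the lower GC band were higher in UTX-AID, with a median of 1.84, and of the other 25, 8 were higher and 12 lower, with a Spearman correlation of −0.833 over the 49 and −0.353 over 16208 genes. With transcript length the correlation was 0.458 over the 49 and −0.0572 over all. Other genes of the lower band had a median of 0.96, and 62.8% of 2572 were higher. Of 9900 other genes of the upper band, 19.6% were higher and 30.5% lower, with a median of −0.073. With the correction, 30 were higher (against 23.5% of all genes) and 11 lower (against 24.8%), with a median of 0.35. The largest corrected differences were those of *Mki67* (2.51), *Cenpe* (2.39) and *Cenpf* (2.06), and that of *Knl1* was 1.47. *Plk4* turned from 0.69 to −0.26, passing in each fit, and *Bub1b* from −0.24 to 0.046. Tagged protein, clone and any difference in how the libraries of the clones were made cannot be told apart.

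**Figure D5:**
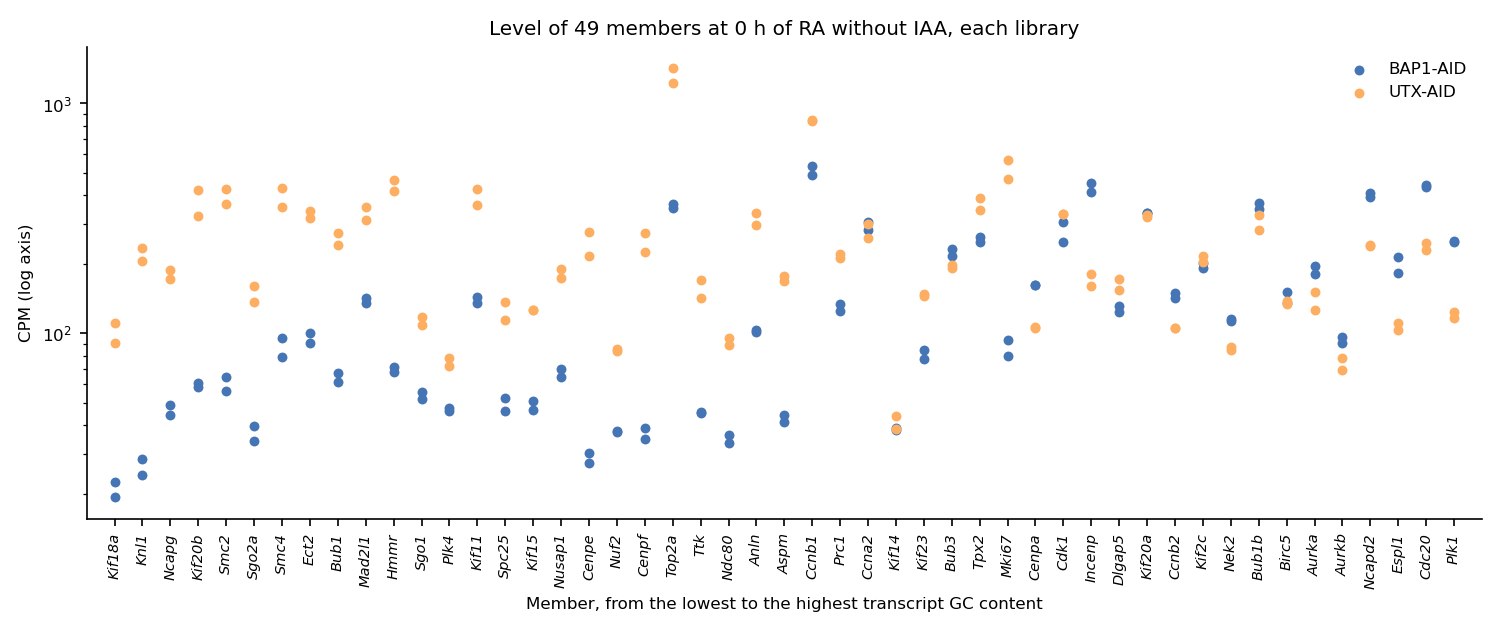
CPM (y axis, log scale) of 49 genes at 0 h of RA without IAA in each of 2 libraries of BAP1-AID (blue) and UTX-AID (orange), with the genes ordered from the lowest to the highest GC content (x axis). All 24 genes of the lower GC band, from *Kif18a* to *Anln*, are higher in UTX-AID, and the 5 genes on the right are lower.

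Promoters of the list carry the elements known from cell cycle genes. In the RefSeq promoter table (GRCm38.p6, 250 bases before to 50 after a start), 42 of the 49 genes had 46 windows, and *Ccna2*, *Incenp*, *Dlgap5*, *Smc4*, *Aurkb*, *Tpx2* and *Kif20a* had no entry. The CHR element, searched as TTTGAA on both strands, was in 33 of the 46 windows (71.7%, 95% Wilson interval 57.5 to 82.7%), against 17.9% of all 32851 windows. These shares cover the whole window, also the 50 bases after the start. In many of the windows with the element, as in that of *Cenpf*, no match lay wholly before the start. The interval takes windows as independent, although *Bub3*, *Ect2* and *Prc1* have overlapping windows. By gene, 30 of 42 held the element, against 5466 of 27025. CCAAT, also on both strands, was in 73.9% against 37.4%, and both motifs, which can share an end base, in 58.7% against 6.95%. With the letters TTCGAA allowed as well, the CHR share was 76.1% against 19.2%. Stretches around the nearest CHR match before the start are printed for 4 genes that rose with IAA in BAP1-AID at 0 h and for 4 that did not pass, with the match in capitals, read along the gene and cut at the start.
*Top2a*: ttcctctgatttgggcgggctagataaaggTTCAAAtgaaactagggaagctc (chr11:99024190-99024242, minus strand)
*Kif11*: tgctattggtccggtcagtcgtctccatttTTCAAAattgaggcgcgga (chr19:37376333-37376381, plus strand)
*Smc2*: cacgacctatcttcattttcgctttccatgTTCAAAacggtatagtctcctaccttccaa (chr4:52439046-52439105, plus strand)
*Mki67*: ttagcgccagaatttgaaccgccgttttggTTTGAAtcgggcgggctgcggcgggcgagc (chr7:135716448-135716507, minus strand)
*Cdc20*: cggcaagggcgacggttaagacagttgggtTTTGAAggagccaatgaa (chr4:118437344-118437391, minus strand)
*Ccnb2*: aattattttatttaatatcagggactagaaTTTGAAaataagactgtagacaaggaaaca (chr9:70421692-70421751, minus strand)
*Cdk1*: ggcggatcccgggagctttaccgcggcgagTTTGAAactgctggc (chr10:69352913-69352957, minus strand)
*Espl1*: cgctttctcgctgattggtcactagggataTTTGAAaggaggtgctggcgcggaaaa (chr15:102296236-102296292, plus strand)
The first 4 are those that rose and the last 4 those that did not pass, and the match reads TTCAAA where it lies on the other strand. Only the match nearest the start is in capitals, and the stretch of *Mki67* holds a further TTTGAA in small letters. All 8 were taken from genes with a match before the start. *Bub1*, *Ccnb1*, *Cenpe*, *Kif18a*, *Mad2l1*, *Nuf2*, *Nusap1*, *Plk4*, *Sgo1* and *Sgo2a*, which rose, had no match in this window. *Nek2*, which fell, had none either, and of the genes with an entry that did not pass only *Birc5* had none.

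Among other genes of the same pathway, further condensin and cohesin genes had the largest share of the 7 lists that rose with IAA in BAP1-AID at 0 h. Of 17 such genes, 13 were higher and 0 lower at both 0 and 3 h (all genes: 11.8% higher and 6.66% lower at 0 h, 8.68% and 4.6% at 3 h), with medians of 0.60 and 0.39, among them *Pds5a* (0.79 at 0 h) and *Wapl* (0.74 at 0 h), both regulators of cohesin on chromatin, and their median GC content was 43.1%. Other kinetochore and centromere genes were mixed, with 10 of 31 higher (*Cenpc1*, 0.68) and 2 lower (*Zw10*, −0.29, and *Ska1*, −0.35) at 0 h, and so were other spindle and cytokinesis genes, with 10 of 30 higher (*Cep192*, 0.80, and *Ckap5*, 0.72) and 1 lower (*Cdc25b*, −0.42). Of 19 genes of the anaphase-promoting complex and its partners, 3 were higher, with *Cdc27* at 0.75. Regulators of the DREAM, MuvB and FOXM1 complexes had 6 of 18 higher (*Tfdp2*, 0.58, and *Lin9*, 0.55). G1/S and replication genes had 6 of 39 higher (*Pola1*, 0.69, and *Dbf4*, 0.50) and 5 lower (*Ccnd3*, −0.40, and *Ccne1*, −0.21), and CDK inhibitors and p53 targets had 1 of 16 higher (*Ccng1*, 0.55) and 2 lower (*Gadd45b*, −0.60, and *Cdkn2d*, −0.53). With the correction for GC content and length, 8 of the 17 condensin and cohesin genes were higher at 0 h and 1 at 3 h. Of the 31 kinetochore genes 2 were then higher and 5 lower at 0 h, and of the 30 spindle genes 9 were higher and 1 lower (all genes in that fit: 5.52% higher and 4.7% lower). Of these 7 lists, 0 genes passed with IAA in UTX-AID at 0 h by edgeR.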

How the data were processed

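Poly(A) RNA-seq of 24 libraries was used. Reads had been mapped by the authors to mm39 using HISAT2 (version 2.2.1), with SAMtools (version 1.19) for the alignments. The deposited values are estimated counts per gene, which the authors made with StringTie (version 2.2.1), not normalized, and all were whole numbers. The annotation, read length and strand setting are not given in the sources used here, so reads of overlapping genes on opposite strands may not be separated.

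Genes were kept by filterByExpr of edgeR (version 4.0.16, R 4.3.3; minimum count 10, minimum total 15), scaled by TMM (factors 0.965 to 1.03), and tested with edgeR's quasi-likelihood test on 1 coefficient per group, over the 12 libraries of a clone, or over all 24 for comparisons between clones. Adjusted p-values are by Benjamini-Hochberg over all genes of a fit. Variation between replicate libraries (as a coefficient, which may be technical) came to 11.6% for BAP1-AID and 11.9% for UTX-AID. CPM are counts scaled to library size after TMM, and 3 counts stood for 0.0545 to 0.0695 CPM. Replicates had Pearson correlations of 0.994 to 0.997, and at most 5.89% of their values were identical. GC content and length are those of GENCODE vM39 transcripts, and their correction used spline offsets of 5 degrees of freedom per library, fitted on genes with a mean log2 CPM above 1. Alternatives were RLE scaling, no filter, DESeq2 (version 1.42.0), a replicate block, all 24 libraries in one fit, and leaving out each library.

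The 49 genes and all further lists were chosen with earlier results of these data known. Any of the 49 may be named. Values in every library are given for *Cenpf* and, in each tested comparison, for the genes of smallest adjusted p (at most 3 in a direction), and from each further list at most 2 in a direction are named. *Plk1*, *Cdc20* and *Cdk1* at 0 and 3 h and *Mki67* and *Cenpe* at 6 h were taken as examples after their values were seen. Promoter sequences are from RefSeq (GRCm38.p6) and were not placed on mm39. The fits were tested on simulated counts.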

Additional observations from a re-analysis of the deposited data

Results flagged for a closer look

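The log2 fold change with IAA was not the same in both clones for 28 of the 49 genes at 0 h and for 15 at 3 h. This is by a test of the difference itself in a fit of all 24 libraries. Over all 16816 genes, 2.99% were higher and 8.85% lower at 0 h, and 2.5% and 4.85% at 3 h. With the correction for GC content and length, 1 of the 49 was higher and 10 were lower at 0 h. At 3 h, 0 were then higher and 1 was lower. At 0 h the difference, UTX-AID minus BAP1-AID, was 0.48 for *Nek2*, −1.03 for *Smc2*, −0.79 for *Hmmr* and −0.83 for *Kif11* on the log2 scale, and at 3 h it was −0.78 for *Mki67*, −0.63 for *Smc2* and −0.62 for *Cenpf*. At 0 h the IAA arms of UTX-AID differed little in *Smc2*, *Hmmr* and *Kif11*, with +IAA libraries within the range of the −IAA libraries in each, while *Nek2* was higher with IAA in both UTX-AID replicates and lower in both BAP1-AID replicates.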

How the results depend on the processing

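Counts of passing genes are given for both directions together. With the correction for GC content and length, 8 genes passed for IAA in BAP1-AID at 3 h (10 with the replicate block as well), 3 were above 1 at 6 h (3), 9 passed for RA at 6 h in its −IAA cells (9), and the difference between the clones held 11 genes at 0 h (13) and 1 at 3 h (1). With RLE scaling, no filter, or all 24 libraries in one fit, 1 gene passed for RA at 3 h in BAP1-AID +IAA cells. In UTX-AID, DESeq2 gave 1 gene for IAA at 3 h, 4 for RA at 3 h and −IAA, 1 at 3 h and +IAA, and 8 at 6 h and +IAA, and no filter gave 1 at 3 h and +IAA. Libraries of different groups with the same replicate number had correlations of their deviations of −0.0472 to 0.249 in BAP1-AID and 0.0292 to 0.219 in UTX-AID, over 15 pairs of groups each. These were positive throughout in UTX-AID, a hint from the data, but not above 0.1 in every pair of either clone, and no source used here ties the numbers to a batch, so the numbers were not treated as pairs. In UTX-AID −IAA cells the summed 49 genes were higher in replicate 2 at 0, 3 and 6 h (11690 and 12900, 11410 and 12180, 12170 and 13030 CPM). In its +IAA cells they were slightly lower (12570 and 12550, 12410 and 12200, 12570 and 12280 CPM). This widens the spread in the tests without a block. A replicate block shared by both arms cannot fully take up shifts that differ between the arms. With the replicate block, 0 genes passed for IAA in UTX-AID at each time. The replicate block gave 5 genes for RA at 3 h in UTX-AID −IAA cells (6 with the correction as well), 1 at 3 h with IAA (1) and 8 at 6 h with IAA (7). Leaving out 1 library each gave 27 to 33 genes for IAA in BAP1-AID at 0 h, 14 to 39 at 3 h and 7 to 7 above 1 at 6 h. For RA in BAP1-AID it gave 5 to 21 and 11 to 28 without IAA and 1 to 6 and 14 to 27 with it, at 3 and 6 h. In UTX-AID it gave 0 to 0 for IAA at each time, 0 to 4 and 2 to 5 for RA without IAA, and 0 to 1 and 0 to 4 with it. The difference between the clones ranged from 24 to 32 genes at 0 h and from 7 to 28 at 3 h, and the comparison of the clones from 41 to 44. The arm left with 1 library was assumed to vary like the other groups. With the correction, *Plk4* and *Bub1b* turned direction between the clones and *Cdc20*, which had not passed, with IAA in BAP1-AID, and the median for IAA in UTX-AID at 6 h went from −0.0010 to 0.0012. Depth did not limit these genes, none of which had fewer than 1009 counts in any library.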
